A study of Mus musculus with 12 samples.

Results

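The comparison described here is between regulatory T cells (Tregs) that lack both Ebi3 and Il10 and Tregs that lack Ebi3 alone. By label the groups thus differ in the added loss of Il10, in cells already without Ebi3. The members of the comparison are the 3 arrays labelled Ebi3-/- Il10-/- Treg, called double knockout below, and the 3 arrays labelled Ebi3-/- Treg. Together they make 6 of the 12 mouse arrays in the series. They were chosen by title, and each double knockout array was paired with the Ebi3-/- array of the same replicate number. The number is also the batch the labels give. The other 6 arrays, 3 of wild type and 3 of Il10-/- Tregs, entered the same statistical fit and gave the matching comparison in cells that still have Ebi3.

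Tregs are CD4 T cells, marked by the transcription factor Foxp3, that restrain other immune cells. Interleukin 10, encoded by Il10, and interleukin 35, a dimer of the Ebi3 and Il12a chains, are secreted inhibitory cytokines through which Tregs act. Interleukin 10 binds a receptor made of the Il10ra and Il10rb chains and signals through Jak1, Tyk2 and Stat3, with Socs3 and Bcl3 among its textbook target genes, and mice without Il10 are known for spontaneous intestinal inflammation driven by interferon gamma and interleukin 17 producing cells. The question that the design poses is how the transcriptome of Tregs depends on these cytokines, singly and together.

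All cells were T cells purified by flow cytometry, used fresh and left untreated, and the labels of the 4 groups differ only in genotype. The labels give no mouse strain, age, sex, sorting marker, targeted allele or tissue, and do not say whether a replicate is 1 mouse or a pool. The p-values below therefore measure only the spread between these arrays, which may be technical. The values are array signals that the authors scaled so that the mean of each array, after trimming its extremes, was 500.0. Differences are given as log2 differences of signal + 20, double knockout minus Ebi3-/-, with batch held constant. Adding 20 makes the differences of dim probe sets smaller than the ratio of their signals. A probe set is a group of array probes read as 1 signal, for 1 or more transcripts. It is said to be called when its Benjamini-Hochberg adjusted p over all 31235 tested probe sets was under 0.05. The number of arrays, 3 per group, limits the precision of every value.

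The targeted genes were checked first, and only Ebi3 was low where its label says it is lost. Ebi3 (probe set 1449222_at) read 3.0, 29.4 and 39.5 on the Ebi3-/- arrays and 15.2, 72.5 and 23.6 on the double knockout arrays, against 1063 to 2057 on the 6 arrays with an intact gene. Its signal was thus low, at 72.5 or less, on all 6 arrays compared. Il10 (1450330_at) read 1401, 2385 and 574.4 on the Ebi3-/- arrays and 2251, 2640 and 1017 on the double knockout arrays. The ranges overlapped and the log2 difference was 0.54 ± 0.528 (SE, n = 3 arrays per group; adjusted p = 0.961), so the Il10 probe set was not lower where the label says Il10 is lost. The labels do not say which part of Il10 was deleted or which part the probes read, so these signals can test neither the genotype of the arrays nor whether interleukin 10 was made.

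The Treg markers were high on all 6 arrays. Foxp3 (1420765_a_at) read 6215, 7390 and 6301 in Ebi3-/- and 5427, 7955 and 4945 in double knockout Tregs. Il2ra, the high-affinity interleukin 2 receptor chain, read 3248 to 4555 (1420692_at), and Ctla4, an inhibitory receptor, read 10362 to 25039 (1419334_at). The groups overlapped for all 3 genes, with log2 differences of -0.15 ± 0.149 for Foxp3, 0.02 ± 0.193 for Il2ra and -0.05 ± 0.189 for Ctla4, and the signs of Il2ra and Ctla4 turned when replicate 2 of the double knockout was left out, that of Ctla4 also after quantile normalization. Xist, expressed from the inactive X chromosome, read 41.6 to 132.2 on the 4 arrays of batches 1 and 2 and 4567 and 3620 on the 2 arrays of batch 3, where Eif2s3y, a Y-linked gene, read 9.7 and 30.6 against 2985 to 3445 in batches 1 and 2. These genes thus differed between batches, and within a batch both groups were alike in them.

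Across the 31235 probe sets, 6 were called, 3 higher in the double knockout (0.0096% of those tested) and 3 lower (0.0096%). The higher ones belonged to Ctse, Ap1s3 and Il17re, and the lower ones to Thap4, D2hgdh and a probe set without a gene name. All 6 had the same sign in each of the 3 batches and no overlap between the groups. They were picked by p from these same arrays, so this describes them and is no further support. An unadjusted p under 0.05 was reached by 1546 of the 31235 probe sets. That is close to the share this threshold lets through where nothing differs. When the replicate pairing was ignored and batch was left out of the fit, only Ctse and Ap1s3 (2 probe sets) were called, with adjusted p = 0.00319 for each.

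Ctse showed the largest difference of any called probe set. It encodes cathepsin E, an aspartic protease of endosomes and other intracellular compartments. Its probe set 1418989_at read 1035, 3159 and 1554 on the Ebi3-/- arrays and 13939, 18622 and 19483 on the double knockout arrays. The lowest double knockout array lay far above the highest Ebi3-/- array. The means were 1916 ± 1107 and 17348 ± 2984 (SD, n = 3 each), a ratio of 9.05, and the log2 difference was 3.30 ± 0.208 (SE; limma, adjusted p = 1.44e-05). By batch the difference was 3.73, 2.55 and 3.63, the smallest one in batch 2, where the Ebi3-/- array was the brightest of its group. A second Ctse probe set, 1427797_s_at, was dim, at 53.6 to 222.7 in Ebi3-/- and 32.5 to 232.8 in double knockout Tregs, and its log2 difference was -0.14 ± 0.436. Because these are bulk samples, more cells of a type and more RNA per cell cannot be told apart, here and in every result below.

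Ap1s3 encodes a small subunit of the AP-1 adaptor, which links cargo to clathrin coats at the trans-Golgi network and endosomes. Its probe set 1455735_at read 165.9, 248.0 and 169.9 in Ebi3-/- and 1681, 1818 and 1365 in double knockout Tregs. The groups were again far apart, with a ratio of means of 8.33 and a log2 difference of 2.95 ± 0.197 (adjusted p = 1.56e-05). Ctse and Ap1s3 were called under every alternative run, including each array and each batch left out in turn, with differences between 3.06 and 3.68 for Ctse and between 2.76 and 3.10 for Ap1s3 over the runs with an array or batch left out.

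Il17re encodes a receptor chain that pairs with Il17ra to bind interleukin 17C. Its probe set 1426566_s_at read 180.5, 334.7 and 142.5 in Ebi3-/- and 576.1, 1028 and 555.6 in double knockout Tregs. Each double knockout array lay well above its batch partner, with log2 differences of 1.57, 1.56 and 1.82 by batch. The ratio of means was 3.28 and the fitted difference was 1.65 ± 0.180 (adjusted p = 0.00291). A second probe set of the gene, 1452109_at, read 279.9, 337.1 and 282.6 against 554.6, 744.4 and 515.3. It did not overlap between the groups either, at 0.95 ± 0.196, but was not called (adjusted p = 0.398). The remaining one, 1439357_at, was dim at 5.0 to 56.3 and differed by 0.04. The call of 1426566_s_at was lost without batch in the fit (adjusted p = 1.0), without replicate 3 of the double knockout (0.0529) and without any 1 of the batches (0.0568, 0.189 and 0.6 without batch 1, 2 and 3), while its difference stayed between 1.57 and 1.74.

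Thap4, which encodes a THAP-domain protein, fell in 1 of its probe sets. Its probe set 1447754_x_at read 1154, 2567 and 1418 in Ebi3-/- and 405.9, 476.0 and 381.2 in double knockout Tregs. All double knockout arrays lay within a narrow band below the lowest Ebi3-/- array, and the log2 difference was -1.90 ± 0.200 (adjusted p = 0.00282), a signal 4.07 times lower in the mean. The other 3 probe sets of Thap4 did not show this, with differences of -0.21 ± 0.232 (1424052_at, signals of 544.8 to 1138), 0.09 (1443311_at) and 0.27 (1458185_at). The call was lost without batch in the fit (adjusted p = 0.505), without the mean trend in the variance prior (0.078) and without batch 2 (0.111) or batch 3 (0.438).

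D2hgdh, the mitochondrial dehydrogenase that oxidises D-2-hydroxyglutarate, fell in 1 of its probe sets as well. Its probe set 1437840_s_at read 1783, 1934 and 2646 in Ebi3-/- and 495.7, 740.0 and 933.6 in double knockout Tregs, with no overlap and a log2 difference of -1.55 ± 0.174 (adjusted p = 0.00343). A dimmer probe set, 1437243_at, overlapped at -0.31 ± 0.255. The call was lost without batch in the fit (adjusted p = 0.546), without the trend (0.103), without replicate 1 (0.059) or 3 (0.0769) of Ebi3-/- and without batch 1, 2 or 3 (0.0799, 0.111 and 0.298). The probe set without a gene name, 1447124_at, read 907.6, 387.3 and 973.3 against 306.2, 122.2 and 169.7 and fell by 1.80 ± 0.261 (adjusted p = 0.0478). Its call was the weakest. It was kept in 3 of the 15 runs that left out an array or a batch, and lost without batch in the fit (adjusted p = 1.0), with batch as a random block (0.116), without the filter (0.0708), with the 60th percentile filter (0.0701), with a pseudocount of 100 (0.0641) and without the trend (0.248).

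**Figure D1:**
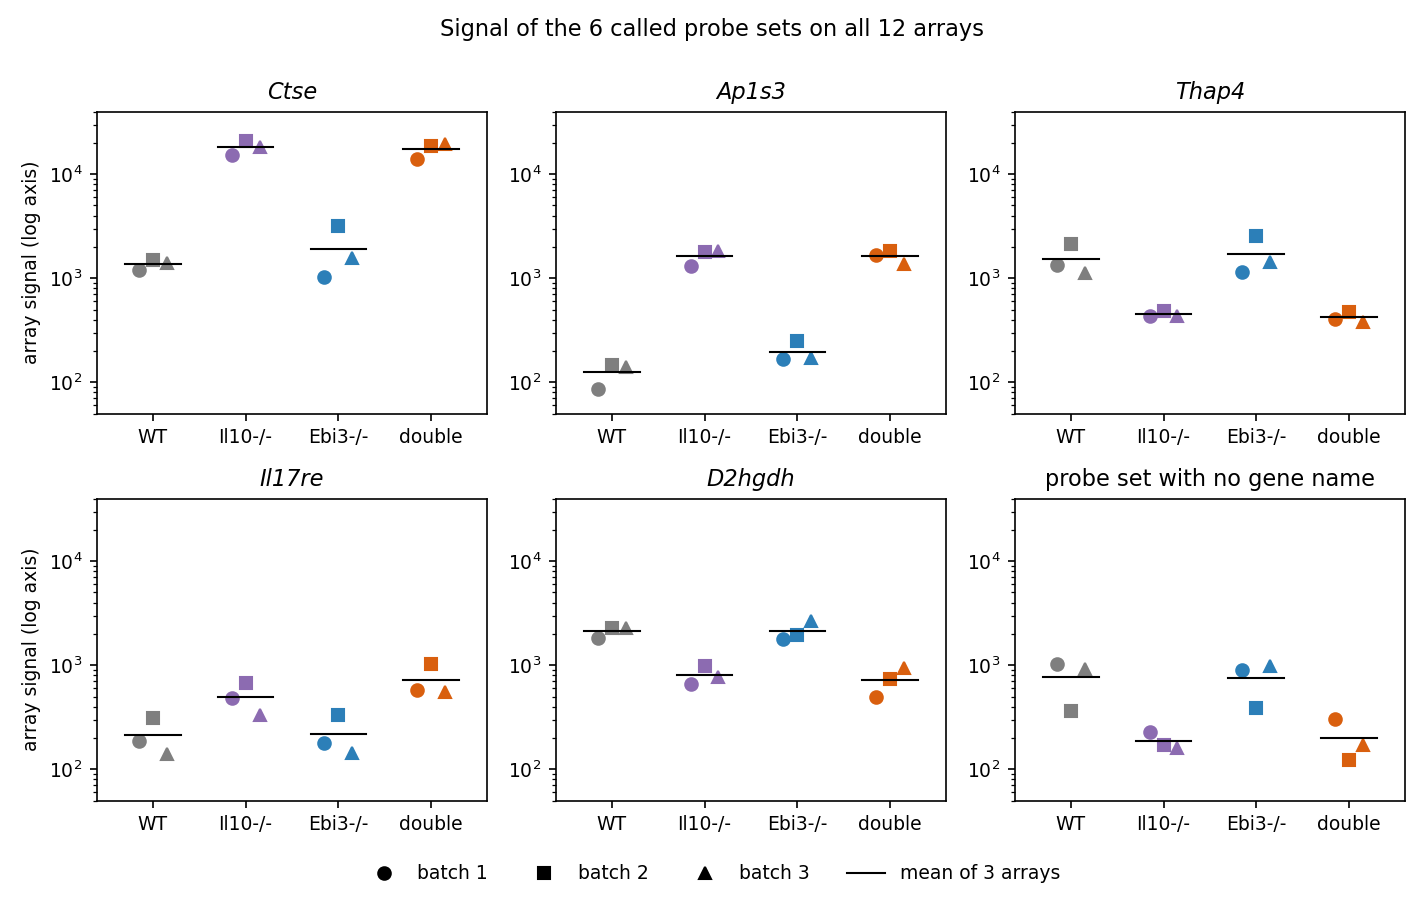
Signal of the 6 called probe sets on all 12 arrays (log axis), by genotype, with batch as the symbol and a bar at the mean of 3 arrays. In each panel the double knockout and Ebi3-/- arrays do not overlap, and the Il10-/- and wild-type arrays are parted in the same direction, for Ctse 15418 to 20750 against 1211 to 1484.

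The promoters of the called genes are shown so that the genes that moved one way can be compared in sequence. The RefSeq table of promoters on build GRCm38.p6 matched 4 of the 5 called genes, and each entry runs from 250 bases before to 50 bases after the start of transcription. Both strands were searched for a STAT-type element (TTCNNNGAA), an AP-1 element (TGANTCA) and a CRE (TGACGTCA), and a match is printed in capitals. Ap1s3 and Il17re were higher in the double knockout, Thap4 and D2hgdh lower, and the table has 2 entries for Thap4, of which the one with a match is printed and the other held none.
Ap1s3, chr1:79671923-79672222, minus strand: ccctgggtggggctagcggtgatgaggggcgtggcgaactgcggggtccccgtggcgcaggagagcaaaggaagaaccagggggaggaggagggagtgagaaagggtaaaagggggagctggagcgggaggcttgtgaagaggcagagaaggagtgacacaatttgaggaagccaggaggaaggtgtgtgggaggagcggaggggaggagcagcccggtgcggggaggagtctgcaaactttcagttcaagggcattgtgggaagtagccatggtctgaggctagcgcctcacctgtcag
Il17re, chr6:113458521-113458820, plus strand: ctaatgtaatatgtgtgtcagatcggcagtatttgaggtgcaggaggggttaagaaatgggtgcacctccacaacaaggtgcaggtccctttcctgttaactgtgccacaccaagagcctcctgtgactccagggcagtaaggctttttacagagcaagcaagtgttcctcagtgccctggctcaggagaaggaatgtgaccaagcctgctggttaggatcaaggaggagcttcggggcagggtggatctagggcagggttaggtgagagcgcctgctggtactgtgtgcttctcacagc
Thap4, chr1:93731877-93732176, minus strand: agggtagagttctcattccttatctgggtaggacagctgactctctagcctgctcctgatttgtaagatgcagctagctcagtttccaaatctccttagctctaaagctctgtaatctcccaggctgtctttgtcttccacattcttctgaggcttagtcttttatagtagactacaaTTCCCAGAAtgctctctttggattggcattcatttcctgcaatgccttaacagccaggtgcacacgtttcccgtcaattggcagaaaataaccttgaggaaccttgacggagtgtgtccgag
D2hgdh, chr1:93824990-93825289, plus strand: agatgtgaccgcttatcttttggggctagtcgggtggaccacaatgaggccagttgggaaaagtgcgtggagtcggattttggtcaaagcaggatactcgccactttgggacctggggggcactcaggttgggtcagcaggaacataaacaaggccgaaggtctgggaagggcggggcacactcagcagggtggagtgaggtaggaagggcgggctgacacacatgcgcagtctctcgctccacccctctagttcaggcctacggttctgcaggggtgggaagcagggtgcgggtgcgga
The only match was TTCCCAGAA, a STAT-type element, at bases 179 to 187 of the printed Thap4 promoter. Such an element lies in 8.3% of all 32851 promoters of the table, the AP-1 element in 7.81% and the CRE in 1.79%, so a single match among these genes is close to what the table holds at large. A match describes letters and no binding was measured.

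After the called probe sets, the 20 named genes with the next smallest p had adjusted p-values from 0.103 to 0.416, and none of them passed the test. In 13 the double knockout was higher and in 7 lower, all 20 had the same sign in the 3 batches, and in 11 the groups did not overlap. They were chosen by that p, so these counts describe them and support nothing.

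Among receptors and chemokines, Ramp1, an accessory chain that forms the receptor for the neuropeptide CGRP with Calcrl, read 2421, 3802 and 2699 against 4038, 5731 and 5665. The double knockout arrays lay above all Ebi3-/- arrays, and the log2 difference was 0.80 ± 0.126 (adjusted p = 0.103, and 0.0476 after quantile normalization). A second Ramp1 probe set differed by 1.29 ± 0.346 and another by -0.54 ± 0.346, neither with overlap. Il18r1, the ligand-binding chain of the interleukin 18 receptor, read 1588, 740.1 and 1943 against 2622, 2539 and 3277, with a difference of 1.07 ± 0.228 (adjusted p = 0.416). Cxcr6, the receptor for Cxcl16 on effector and tissue T cells, read 587.6, 263.1 and 616.8 against 828.0, 878.0 and 1693, a difference of 1.19 ± 0.249 and 1.29 ± 0.301 in its second probe set. Ccl5, a chemokine of effector T and NK cells, differed by 0.84 ± 0.147, with overlapping groups, and the arrays of batch 3 were the brightest of both genotypes (2362 and 4927).

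Among genes of other immune cells, S100a8 and S100a9, the 2 chains of the neutrophil and monocyte protein calprotectin, differed by 1.51 ± 0.257 (adjusted p = 0.166) and 1.34 ± 0.271 (0.357), and Ngp, a neutrophil granule gene, by 1.50 ± 0.281 (0.264). S100a8 read 524.3, 614.3 and 2333 in Ebi3-/- and 1171, 1829 and 8501 in double knockout Tregs, so each double knockout array was above its batch partner while the groups overlapped. Chil1, a chitinase-like protein of myeloid and epithelial cells, read 12, 7.6 and 14 against 126.7, 53.0 and 331.9, so every double knockout array lay above all Ebi3-/- arrays, though the signals are low and that of batch 2 was under the median of its array (69.6), with a difference of 2.32 ± 0.487 (adjusted p = 0.405). Cd163l1, a scavenger receptor family gene of gamma delta T cells, read 26.3, 53.6 and 59.2 against 494.5, 286.9 and 180.7, a difference of 2.29 ± 0.481 (0.405), and its second probe set differed by 1.89 ± 0.629 without overlap. Trgv4, a variable segment of the T cell receptor gamma chain, read 369.0, 343.9 and 596.6 against 644.1, 598.6 and 1073 and differed by 0.79 ± 0.166 (0.405). Its second probe set differed by 0.61 ± 0.209, with overlapping groups. Tmem176a, a transmembrane protein, differed by 0.81 ± 0.162, without overlap.

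The genes with lower signals in the double knockout included several regulators. Kdm5b, a histone H3K4 demethylase, read 541.6, 1000 and 395.2 against 180.0, 332.2 and 190.1, a difference of -1.34 ± 0.216 (adjusted p = 0.116) in probe set 1427142_s_at, while its brightest probe set, 1427143_at, differed by 0.22 ± 0.213. Bcl2, the founding anti-apoptotic protein of its family, differed by -1.46 ± 0.273 in 1443837_x_at (0.264), while its brightest probe set, 1457687_at, differed by -0.08 ± 0.140. Mcm6, a subunit of the replicative helicase, differed by -0.77 ± 0.140 (0.236) and by -0.79 ± 0.183 in its second probe set. Stk25, a stress-related kinase, read 748.3, 409.5 and 374.7 against 206.1, 261.6 and 123.2 and differed by -1.28 ± 0.251 (0.313). Ryk, a Wnt-binding receptor, read 70.7, 305.2 and 132.8 against 12.3, 27.8 and 23.1 and differed by -2.03 ± 0.386 (0.264). Nrip1, a nuclear receptor co-repressor, differed by -0.61 ± 0.129 (0.416) in 1449089_at. Its brightest probe set, 1434384_at, differed by -0.42 ± 0.123 and the dimmer ones by -0.22, 0.02, -0.33 and 0.01, all with overlapping groups. The remaining genes of the 20 were Jpt1 at -0.87, Czib at 1.01 and R3hdm1 at 1.25. A brighter probe set of Czib (1426468_at) differed by -0.03 and one of R3hdm1 (1433871_at) by 0.13, and the other probe sets of Jpt1, dimmer than the one given, differed by -0.07 and -0.05.

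**Figure D2:**
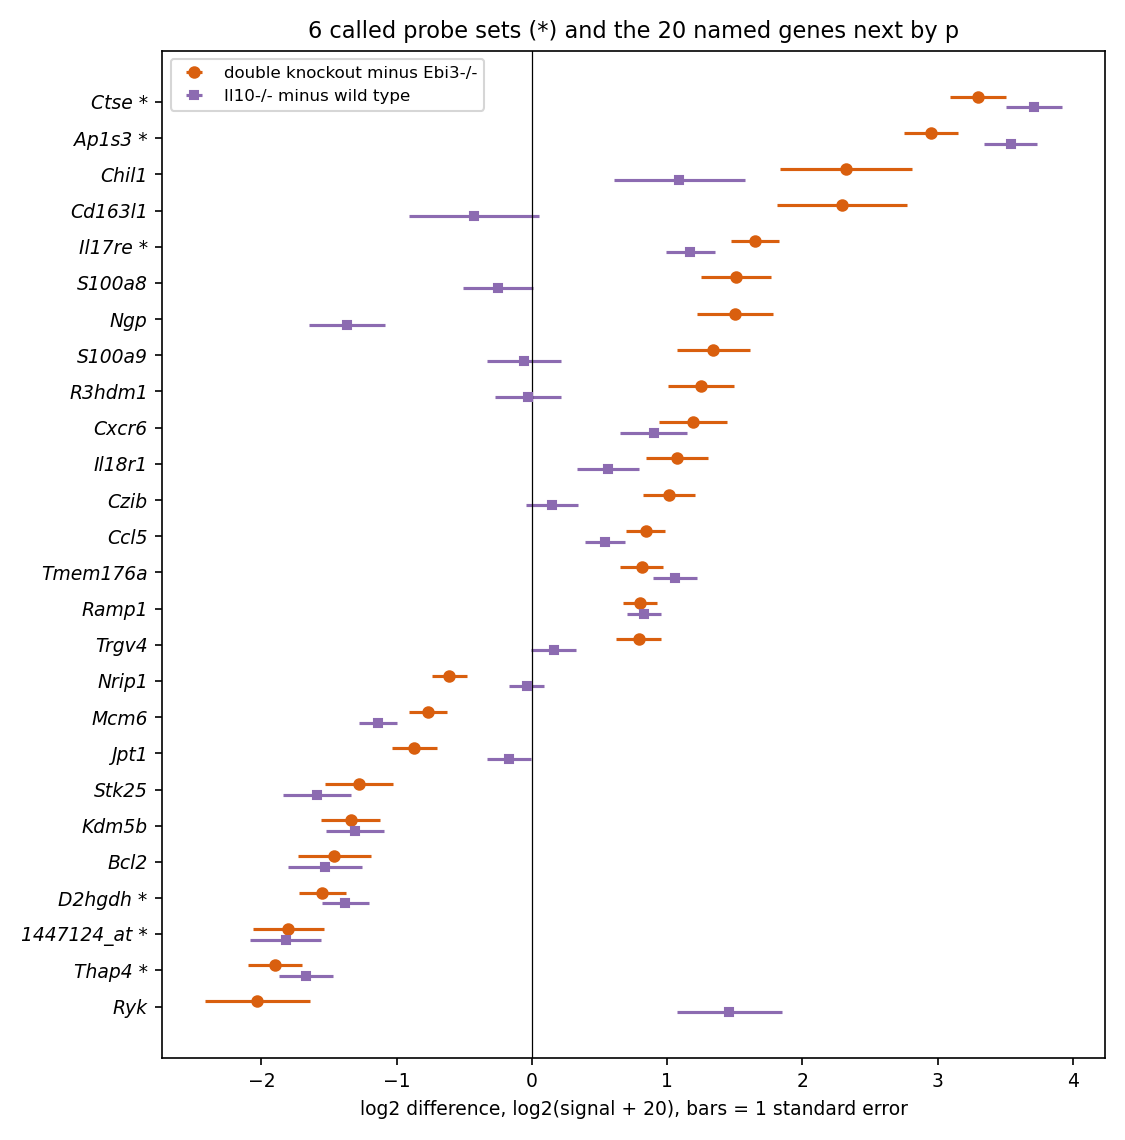
Log2 differences of the 6 called probe sets (marked *) and of the 20 named genes next by p, with bars of 1 standard error, for double knockout minus Ebi3-/- and for Il10-/- minus wild type. Ctse and Ap1s3 stand apart in both, whereas Ryk (-2.03 and 1.46) and Ngp (1.50 and -1.37) lie on opposite sides of 0.

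The matching comparison, Il10-/- minus wild type, uses no array of the one above and shares only its batches and the error estimate of the fit. It had 12 called probe sets, 7 higher (0.0224%) and 5 lower (0.016%), and all 6 probe sets called in the double knockout against Ebi3-/- were among them. Ctse read 1211, 1484 and 1407 in wild type and 15418, 20750 and 18352 in Il10-/- Tregs, a difference of 3.71 ± 0.208, and Ap1s3 differed by 3.54 ± 0.197. Il17re differed by 1.17 ± 0.180 there (adjusted p = 0.0458), Thap4 by -1.67 ± 0.200 (0.012), D2hgdh by -1.38 ± 0.174 (0.013) and 1447124_at by -1.82 ± 0.261 (0.037). Of the 20 next genes, Ramp1 (0.83 ± 0.126), Tmem176a (1.06 ± 0.162) and Mcm6 (-1.14 ± 0.140) were called in Il10-/- against wild type. Without batch in the fit that comparison had 2 calls. Fitted on its own 6 arrays, without the shared error estimate, it also had 2, so most of the shared calls were not made in either fit.

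A test of the difference between the 2 comparisons called no probe set (limma, 0.0% of 31235), with 1232 at an unadjusted p under 0.05, and 400 when batch was left out of the fit. For Ctse the difference in the double knockout comparison less that in the Il10-/- comparison was -0.40 ± 0.294 (adjusted p = 1.0). For Ap1s3 this value was -0.59 ± 0.279 and for Il17re 0.49 ± 0.254 (adjusted p = 1.0 for each). Of the genes named in this text, the smallest p in that test belonged to Ngp, at 2.87 ± 0.398 (adjusted p = 0.184), and Ryk, at -3.49 ± 0.545 (0.319). Of the 20 next genes 14 had the same sign in both comparisons, against 57.0% of all tested probe sets: 7 of the 8 on chromosome 1 and 7 of the 12 on other chromosomes.

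The position of the called genes was then examined, since Il10 itself lies on mouse chromosome 1. Of the 5 called genes with a name, Ctse, Ap1s3, Thap4 and D2hgdh (4 genes) were on chromosome 1 and Il17re was on chromosome 6. In the order of the 802 tested genes of chromosome 1 by RefSeq, Il10 took place 446. Ctse came 8 genes after it, while D2hgdh came 71, Thap4 75 and Ap1s3 159 genes before it. Of the 20 next genes, 8 were on chromosome 1: R3hdm1 and Mcm6 at 14 and 11 genes before Il10, Bcl2, Stk25 and Ramp1 at 51, 77 and 101 before it, Il18r1 at 330 before it, and Chil1 and Kdm5b at 35 and 43 after it. The array files name no genome build, so places are given in gene order and not in bases.

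With 1 probe set per gene, the double knockout arrays lay above all Ebi3-/- arrays in 386 of 13899 genes (2.78%) and below them in 246 (1.77%). On chromosome 1 this held for 58 of 802 genes in either direction (7.23%), and on the other chromosomes for 2.42% to 5.07%. Both comparisons parted without overlap in the same direction in 68 genes (0.489%), of which 15 were on chromosome 1 (1.87% of its genes, against 0.0% to 0.817% on the others), and in opposite directions in 14. Along chromosome 1 in steps of 100 genes, the counts without overlap were 4, 4, 8, 14, 9, 5, 3 and 11. The 2 steps that run from 145 genes before Il10 to 54 after it held 9 and 4 of the 15 genes that parted in both comparisons. Besides the called ones, those 15 included Ecel1 (1.12 and 0.86 in the double knockout and the Il10-/- comparison), Tmem37 (1.04 and 0.93), Rab17 (0.74 and 0.92), Sag (-0.97 and -0.87), Stk25 and Ramp1. Why chromosome 1 held the larger share was not tested, and the labels give neither strain nor targeted allele.

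None of the genes next to Il10 or to the called genes was called. Over the whole array 0.0096% of probe sets were called in each direction, and 2.78% of genes parted upward and 1.77% downward without overlap. At these shares, no call and no parting among so few genes does not set these regions apart. The 5 tested genes on either side of Il10 were AA986860, Pigr, Fcmr, Il24 and Il20 before it and Mapkapk2, Dyrk3, Eif2d, Rassf5 and Ikbke after it, and in all 10 the groups overlapped. Il20 and Il24, cytokines of the Il10 family, were dim (5.3 to 80.2), and Mapkapk2, a kinase downstream of p38, read 741.5 to 1059 and differed by 0.02 ± 0.149. Bok and Atg4b, on either side of Thap4, differed by 0.16 and -0.08, and Ing5 and Gal3st2, on either side of D2hgdh, by 0.02 and 0.18. Fam72a and Rab7b beside Ctse differed by 0.42 and -0.31, Kcne4 and Wdfy1 beside Ap1s3 by -0.15 and 0.24, and Jagn1 and Creld1 beside Il17re by 0.27 and 0.42, none of them called and all with overlapping groups.

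**Figure D3:**
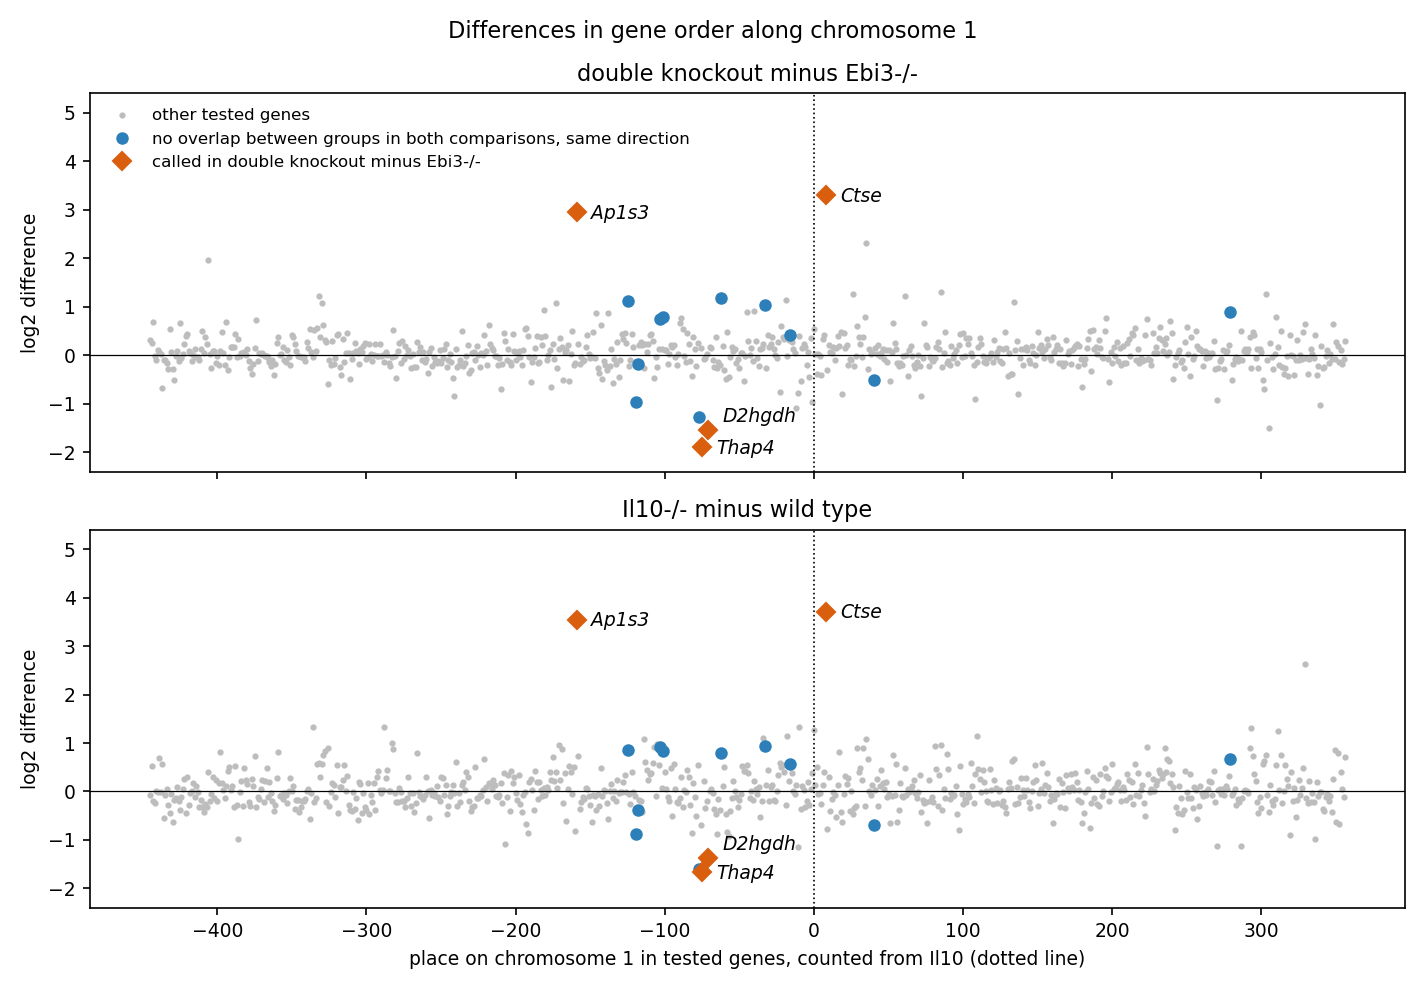
Log2 difference of every tested gene of chromosome 1 against its place in gene order from Il10, for double knockout minus Ebi3-/- (top) and Il10-/- minus wild type (bottom). The 4 called genes keep their direction in both panels, and most of the genes parted in both comparisons lie between 159 genes before and 43 genes after Il10.

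Gene lists were then read for what moved together, by the count of members above 0 and the median, beside 52.5% above 0 and a median of 0.014 over all 13899 genes (quartiles -0.13 and 0.19). Each gene counts through its brightest probe set. The only called members of any list were Ctse, Ap1s3 and D2hgdh, and no list was tested as a set. The lists were chosen with earlier results of these data known, so their counts and medians are descriptions only. The IL-10 pathway itself lay close to the values of all genes. Of 17 tested genes of IL-10 receptor signalling and feedback 10 were above 0, with a median of 0.05. Il10ra read 510.4 to 1108 and 600.8 to 1137 (0.15 ± 0.150), and Il10rb 2453 to 3450 and 2013 to 3276 (-0.18 ± 0.133). Sbno2, a transcriptional co-regulator downstream of the receptor, read 779.9, 267.3 and 189.6 against 924.9, 520.0 and 444.5 (0.77 ± 0.227, adjusted p = 0.935). Socs3 read 11478, 7716 and 4397 against 13936, 9572 and 5706, higher than its partner in each batch, with a difference of 0.32 ± 0.134. In Il10-/- against wild type the same Socs3 probe set differed by 0.79 ± 0.134, and another, 1456212_x_at, was called there at 1.32 ± 0.191 while it differed by 0.23 ± 0.191 in the double knockout. Bcl3 differed by 0.21 ± 0.171 and was the only gene of the list without overlap (989.9 to 1108 against 1142 to 1399). With 2.78% of all genes parted upward and 1.77% downward, 1 gene of 17 is no result about the list. The IL-10 family cytokines and receptors (8 tested, median 0.05) and the IL-12 family chains and receptors (7 tested, median 0.06) were close to 0 as well, with Il12rb2 at -0.83 from signals of 3.2 to 72.5 and Il27ra at 0.06.

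Treg genes had medians near 0. Of 17 Treg identity genes 8 were above 0, with a median of -0.05 and a range from -0.15 to 0.41, and only Socs2 parted without overlap (1432, 1438 and 1472 against 2060, 1648 and 1556). As 2.78% of all genes parted upward and 1.77% downward, 1 gene of 17 does not set the list apart. Itgae, the integrin chain CD103, was the highest at 0.41 ± 0.186, with overlapping groups. Of 18 suppressive molecules 12 were above 0, with a median of 0.15. Gzma and Prf1, the cytotoxic granule proteins granzyme A and perforin, differed by 0.86 ± 0.320 and 0.64 ± 0.231. Furin, a proprotein convertase, read 656.3, 526.5 and 614.4 against 855.7, 997.6 and 660.5 (0.46 ± 0.185). Of 11 genes of resting and central T cells 2 were above 0, with a median of -0.07, and Satb1, a chromatin organiser of thymocytes and naive T cells, differed by -0.42 ± 0.141.

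None of the relatives and partners of the called genes was called, where 0.0096% of all probe sets were called in each direction. Of 14 aspartyl and lysosomal proteases and their inhibitors 13 were above 0, with a median of 0.21 and batch medians of -0.03, -0.05 and 0.54, so the shift was that of batch 3. After Ctse the largest difference was that of Ctsw, at 0.41 ± 0.201, and Ctsl read 793.5 to 1573 against 1006 to 1281. Of 19 AP-1 and other clathrin adaptor subunits 8 were above 0, with a median of -0.02, and the other AP-1 chains Ap1s2 and Ap1g1 differed by 0.31 ± 0.175 and 0.25 ± 0.215. Of 16 genes of D-2-hydroxyglutarate and TCA metabolism 4 were above 0 (median -0.09), with Aco1 at -0.34 and Idh2 at 0.30. Calcrl, the partner of Ramp1, differed by -0.32 ± 0.198, and the 6 tested genes of CGRP and adrenomedullin receptors had a median of 0.14. Of 13 histone demethylases 7 were above 0 (median 0.01). Among 14 genes of the TRAIL, Fas and death receptor systems 7 were above 0 (median -0.01). Tnfsf10, which encodes TRAIL, had 3 probe sets at 0.34, -0.07 and 0.13, and Tnfsf14 and Tnf differed by 0.69 ± 0.229 and 0.55 ± 0.202. The 14 genes of the BCL2 family had a median of -0.09, with Pmaip1, a pro-apoptotic member, at 1.05 ± 0.430 and Bmf at -0.55 ± 0.290.

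Genes of effector and type 17 cells lay mostly above 0. Of 13 type 17 genes 11 were above 0, with a median of 0.40 and batch medians of 0.48, 0.42 and 0.31, and 4 parted upward without overlap: Il1r1, Il17re, Ccr6 and Tmem176b. Over all genes 2.78% did so. The list holds the called gene Il17re and was chosen with earlier results of these data known, so its counts describe it and support nothing. The called Il17re probe set is not the one that counts here, since the other is brighter, which is why the list holds no call. Il17a, the signature cytokine of these cells, read 52.3, 247.9 and 41.4 in Ebi3-/- and 411.3, 1043 and 131.9 in double knockout Tregs. It was above its partner in every batch, but the groups overlapped (1.96 ± 0.452, adjusted p = 0.642). Ccr6, a chemokine receptor of type 17 cells, read 1888, 2220 and 1617 against 2638, 3145 and 2586 (0.55 ± 0.127, adjusted p = 0.642). Il1r1, the interleukin 1 receptor, read 17.5, 48.2 and 19.3 against 61.0, 159.1 and 69.9 (1.23 ± 0.423), and Rora, a transcription factor of the lineage, differed by 0.40 ± 0.162. In Il10-/- against wild type 9 of the 13 were above 0, with a median of 0.29, and Il17a differed by 0.41 and Ccr6 by -0.09.

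Of 13 effector cytokines and regulators, a list that shares Il17a and Il1r1 with the type 17 list, 11 were above 0 with a median of 0.43, and all 13 were above 0 in Il10-/- against wild type (median 0.58, batch medians 0.94, 0.68 and 0.42). Ifng read 1896, 1870 and 1351 against 1672, 4640 and 2631 (0.69 ± 0.347), with the batch 1 pair in the other direction. Csf2, the cytokine GM-CSF, read 13.6, 44.8 and 41.0 against 43.4, 155.8 and 97.2 (1.10 ± 0.344), and Il18rap, the signalling chain of the interleukin 18 receptor, differed by 0.62 ± 0.259. The other 2 members of the list were below 0, down to -0.83. Of 21 chemokines and homing receptors 14 were above 0 and 7 below, down to -0.76 (median 0.13). Among those above 0 were Cxcr6 and Ccl5, given earlier, and Ccr1 at 0.84 ± 0.281.

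Markers of other cell types were read beside these genes, and none of them was called (0.0096% of all probe sets were, in each direction). A list of 14 gamma delta T cell genes was added after Cd163l1 and Trgv4 had been seen among the lowest p-values, so its direction is no support for them. Of its 9 tested genes 8 were above 0, and the median was 0.79. Cd163l1, Trgv4, Sox13, 5830411N06Rik and Zbtb16 (5 genes) parted upward without overlap, against 2.78% of all genes. These counts, the median and the summed signal include Cd163l1 and Trgv4, so they describe the list and support nothing. Sox13, a transcription factor of gamma delta cells, read 64.8, 10.5 and 22.6 against 88.8, 80.2 and 120.5. The summed signal of the list was 1579 to 1847 in Ebi3-/-, 2928 to 3480 in double knockout, 1801 to 1999 in wild type and 1643 to 2740 in Il10-/- Tregs, so the double knockout range lay above the other 3. The part of such cells in the type 17 result was not tested.

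Neutrophil markers were above 0 in 14 of 14 tested genes, with a median of 0.71 and batch medians of 0.30, 1.13 and 0.88. Mmp8, a neutrophil collagenase, read 19.0, 2.1 and 69.2 against 74.8, 80.8 and 135.3 (1.42 ± 0.314), and Lcn2, the granule protein lipocalin 2, read 58.1, 21.7 and 209.8 against 100.2, 154.4 and 664.6 (1.42 ± 0.397). None was called, and 2 parted upward without overlap, against 2.78% of all genes. The summed signal of the list ran from 1816 to 6324 in Ebi3-/- and from 3019 to 18501 in double knockout Tregs. The top of each range was in batch 3. In wild type the sum ran from 3609 to 15873 and in Il10-/- from 2244 to 14445, so the double knockout range overlapped those of all other groups. In Il10-/- against wild type 3 of the 14 were above 0 and the median was -0.81. S100a8 passed the test in 4 alternative runs (adjusted p = 0.0216 with only the 6 arrays compared, 0.0298 without replicate 1 of the double knockout, 0.0337 without batch 1 and 0.0496 without replicate 2 of Il10-/-). Lower genes gained calls in such runs too, Zfp945 at -3.21 without replicate 2 of Ebi3-/- (adjusted p = 0.00136) or without batch 2 (0.0201), and Polr3k at -1.49 with only the 6 arrays compared (0.0384).

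Of 16 CD8 T and NK cell markers 11 were above 0 and 5 below, down to -0.33 (median 0.42, batch medians 0.08, 0.53 and 0.78). Among those above were Klrc1 at 1.33 ± 0.376, Klre1 at 1.30 ± 0.328 and Klrd1 at 0.70 ± 0.217, all natural killer receptors. The summed signal was 2590 to 6790 in Ebi3-/- and 3192 to 12698 in double knockout Tregs. It was 2631 to 10200 in wild type and 3302 to 12949 in Il10-/- Tregs. The part of such cells in the differences of Ccl5, Gzma, Prf1 and Ifng was not tested. Dendritic cell markers were above 0 in 11 of 13 (median 0.36), plasma cell markers in 6 of 8 (0.30), monocyte and macrophage markers in 9 of 13 (0.24, batch medians 0.01, -0.15 and 0.29), B cell markers in 8 of 11 (0.10, batch medians -0.28, -0.11 and 0.94) and erythroid and platelet markers in 5 of 8 (0.31). The 8 defining genes of CD4 T cells had a median of -0.01.

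**Figure D4:**
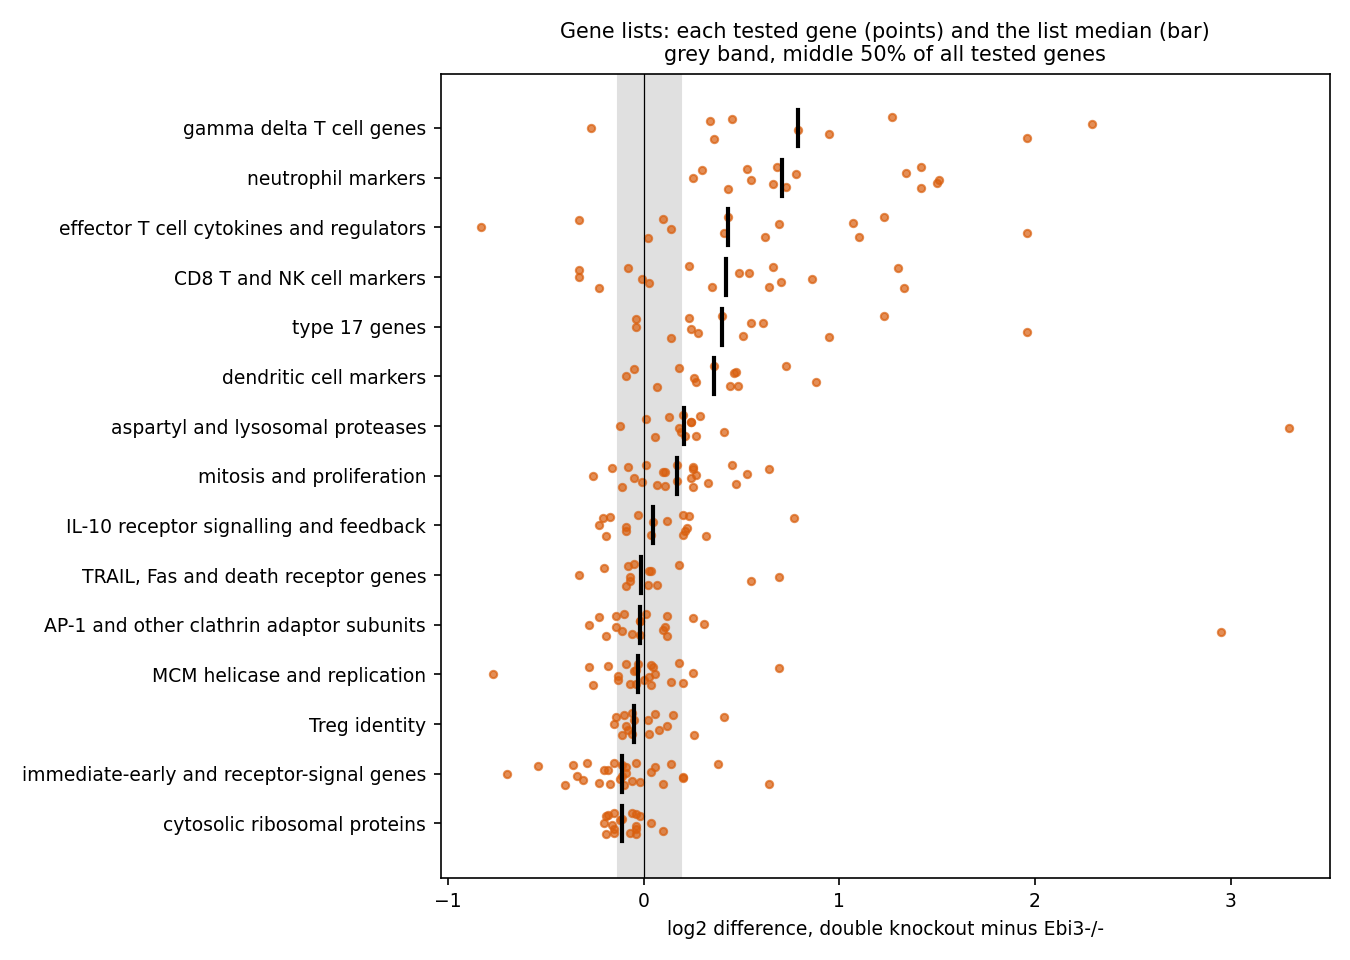
Log2 difference, double knockout minus Ebi3-/-, of each tested gene (points) in 15 gene lists, with the list median as a bar and the range between the quartiles of all genes, -0.13 to 0.19, as a grey band. Gamma delta, neutrophil, effector, CD8 and NK and type 17 lists have medians of 0.40 to 0.79, and Ctse (3.30) and Ap1s3 (2.95) stand alone in theirs. The gamma delta list was added after Cd163l1 and Trgv4 had been seen among the lowest p-values.

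**Figure D5:**
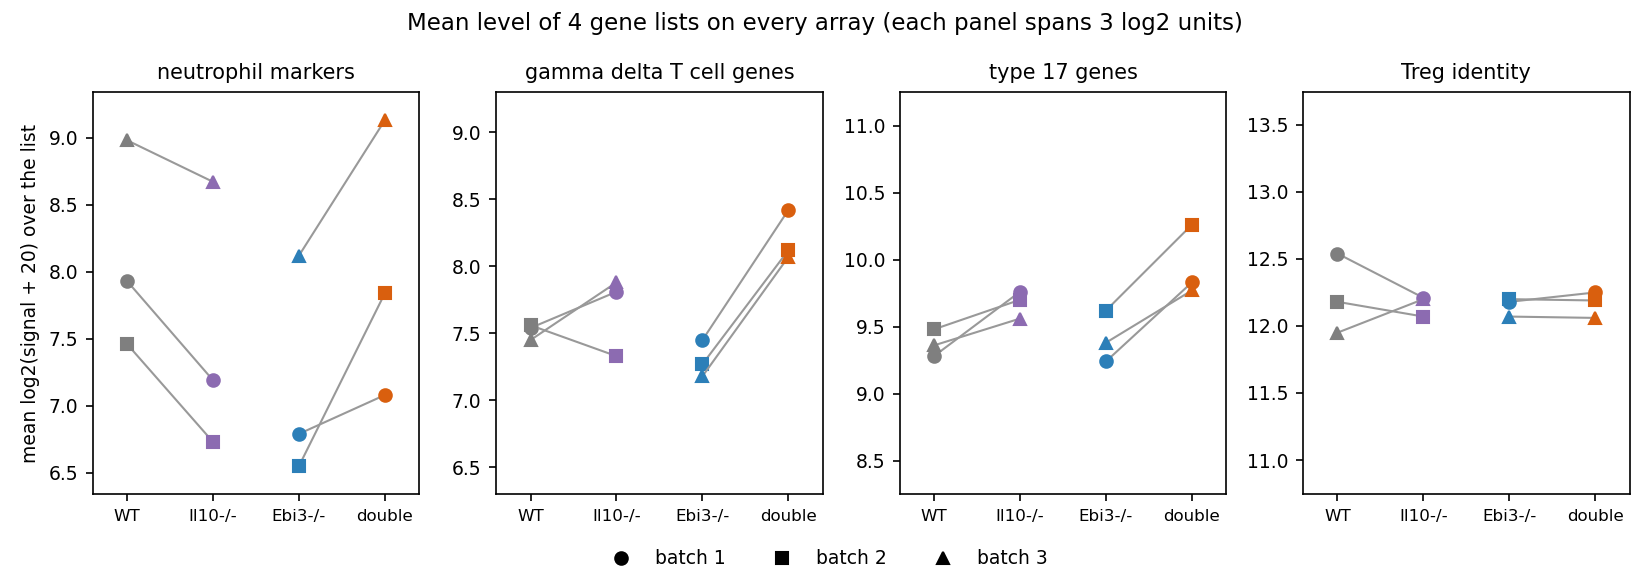
Mean log2(signal + 20) of 4 gene lists on every array, with lines joining the arrays of 1 batch and each panel spanning 3 log2 units. Neutrophil markers run from 6.79, 6.55 and 8.12 in Ebi3-/- to 7.08, 7.84 and 9.13 in double knockout, while Treg identity genes stay between 12.06 and 12.25 on the 6 arrays. In wild type the neutrophil values are 7.93, 7.46 and 8.98.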

How the data were processed

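RNA was labelled by a two-cycle protocol and hybridised to mouse Affymetrix arrays, with MAS5 and Partek 6.4 among the tools listed in the submitters' processing notes. The deposited values are natural log (ln) values. From the values themselves they are ln(signal + 20): the back-computed signals are multiples of 0.1, and the mean after trimming 2% at each end is 500.0 on every array. They were converted to log2 and not normalized again. Of 45101 probe sets, 64 controls were left out, and the 31235 that reached the 40th percentile of their array on 3 or more arrays were tested. Gene names come from the platform annotation dated 2016, updated by gene identifier: 34945 probe sets had 1 symbol, 932 several and 9160 none.

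One linear model of all 12 arrays with genotype and batch (6 residual degrees of freedom) was fitted in limma 3.58.1 (R 4.3.3) with eBayes and a trend, tested on simulated data, and p-values were adjusted over all tested probe sets. The labels give the replicate number as the batch. Deviations from the group mean correlated at 0.325 to 0.664 between arrays of the same number (18 pairs) and at -0.531 to -0.0204 otherwise, and 12 of 12 arrays matched their own number best. Since the deviations of a group sum to 0, correlations between different numbers tend to be negative by construction.

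Named genes are all called ones, the 20 named genes next by p, 10 genes of interest (both targets, Ctse, Ap1s3, Tnfsf10, Foxp3, Il2ra, Ctla4, Il17re and Socs3), up to 4 members per list with the largest difference, and the neighbours of Il10 and of called genes. In lists a gene counts through its brightest probe set. The comparison, the 34 gene lists and the 3 motifs were chosen with earlier results of these data known; 487 of 556 listed genes were tested. Where members of a list are named beyond the 4 largest, and for the added gamma delta list, they were chosen after their values were seen. Alternatives covered the batch term, the arrays in the fit, the filter, the pseudocount, quantile normalization, the prior and each array or batch left out.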

Additional observations from a re-analysis of the deposited data

Results flagged for a closer look

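For 2 gene lists the medians of the 3 batches had one sign in double knockout minus Ebi3-/- and the other sign in Il10-/- minus wild type, and this difference between the comparisons was not tested over the list. Neutrophil markers had batch medians of 0.30, 1.13 and 0.88 in the first and -0.74, -0.66 and -0.38 in the second, and the list medians differed by 1.51 on the log2 scale. The neutrophil gene furthest apart was Ngp, which read 191.5, 138.5 and 972.4 in Ebi3-/-, 451.6, 634.6 and 2394 in double knockout, 1277, 556.3 and 2925 in wild type and 321.5, 180.6 and 1838 in Il10-/- Tregs. Wild type and double knockout Tregs thus held the higher signals in every batch. For erythroid and platelet markers the batch medians were 0.15, 0.38 and 0.61 against -0.31, -0.07 and a value just below 0, and the list medians differed by 0.41. Alas2, the heme synthesis enzyme of red cell precursors, was the highest of that list at 1.56 in the double knockout and 0.02 in Il10-/-.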

How the results depend on the processing

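The 6 calls in double knockout against Ebi3-/- became 2 when the replicate block was dropped and 3 without the trend in the prior, and 2 to 7 when 1 array or 1 batch was left out; they were 5 with batch as a random block, 8 with only the arrays compared, 5 without the filter, 5 with the 60th percentile filter, 5 with a pseudocount of 100 and 7 after quantile normalization. Il10-/- against wild type moved more, from 12 calls to 2 without the replicate block, 4 with batch as a random block, 2 with only its own arrays, 2 without the trend and 2 to 7 with an array or batch left out. The test of the difference between the comparisons gave 0 to 1 calls with an array or batch left out (1, a probe set without a gene name, without replicate 3 of wild type) and 0 otherwise. Of the 103 probe sets and genes followed through up to 23 alternatives, 89 kept their sign in all. Quantile normalization turned Ctla4 to 0.05 and Mapkapk2 to -0.03. Leaving out arrays or batches turned the sign within these ranges: Tnfsf10 from -0.23 to 0.17, Il2ra from -0.10 to 0.12, Ctla4 from -0.16 to 0.02, Stat3 from -0.25 to 0.39, Il24 from -0.12 to 0.70, Mapkapk2 from -0.05 to 0.08, Il27ra from -0.05 to 0.21, Atg4b from -0.27 to 0.02, Bok from -0.30 to 0.91, Gal3st2 from -0.31 to 0.71, Ing5 from -0.10 to 0.17, Kcne4 from -0.69 to 0.52, Rab7b from -0.55 to 0.02 and Wdfy1 from just below 0 to 0.36. The median of all tested probe sets moved from 0.036 to -0.005 after quantile normalization. The cause of these changes was not tested. Over the same alternatives the medians ranged from 0.53 to 1.03 for neutrophil markers, from 0.31 to 0.46 for type 17 genes, from 0.58 to 0.81 for gamma delta T cell genes, from 0.33 to 0.66 for effector genes, from 0.13 to 0.71 for CD8 and NK markers, from 0.17 to 0.72 for dendritic cell markers and from 0.0 to 0.31 for aspartyl and lysosomal proteases. They turned sign in 3 of 24 alternatives for B cell markers (-0.24 to 0.48) and for mitosis genes (-0.18 to 0.37). With 3 arrays per group, probe sets near the array floor limit what can be read from dim genes such as Chil1, Il20 and Sox13.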

Other observations

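The difference in genes of mitosis was not the same in the 3 batches. Of 23 tested, 17 were above 0 (median 0.17), but the batch medians were 0.84, -0.23 and -0.14, while in Il10-/- minus wild type they were -0.51, -0.57 and -0.50 and 1 of 23 was above 0. Mki67, the proliferation marker, read 1154, 2040 and 2237 in Ebi3-/- and 2696, 2141 and 2437 in double knockout Tregs (0.47 ± 0.199), and -0.71 was its difference in Il10-/- minus wild type. Tpx2 and Ccna2, a spindle factor and cyclin A2, parted without overlap upward in the double knockout (0.64 and 0.53) and downward in Il10-/- (-0.71 and -0.89). Of all 13899 genes, 2.78% parted upward in the double knockout, and 14 genes parted in opposite directions in the comparisons. The batch medians of the list differed in sign in the double knockout, so Tpx2 and Ccna2 are no result about the list. The 23 genes of the MCM helicase and replication had a median of -0.03.

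Genes of recent receptor signals were low on 1 wild-type array. The mean log2(signal + 20) of 29 immediate-early genes was 10.47 on replicate 1 of wild type and 11.52 to 12.93 on the other 11 arrays. Of these 29 immediate-early genes 8 were above 0 in double knockout minus Ebi3-/- (median -0.11) and 28 in Il10-/- minus wild type (median 0.69), where the batch medians were 1.64, 0.06 and 0.10, so that median rests on batch 1. Dusp10, a phosphatase of stress kinases, differed by -0.70 ± 0.399 and 0.62, and Atf3, a stress-induced factor, by 0.64 ± 0.680 and 2.63 (5.19, 0.82 and 1.90 by batch). Hspa1a, an inducible heat shock protein, read 7840, 3018 and 5182 against 20122, 17090 and 7409 (1.46 ± 0.783), and the 17 heat shock and handling genes had medians of 0.06 and 0.55. The second had batch medians of 0.99, 0.46 and -0.11, and replicate 1 of wild type was again the lowest array, at 10.72 against 11.42 to 12.11. The median was -0.03 for 30 interferon response genes, -0.07 for 25 genes of oxidative phosphorylation, 0.02 for 15 of glycolysis and -0.11 for 19 cytosolic ribosomal proteins, of which 2 were above 0.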
